A study of Mus musculus with 4 samples.

Results

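The 10 genes described here, Nes, Sox1, Sox2, Sox9, Pax6, Prom1, Fabp7, Msi1, Vim and Hmga2, are commonly used to identify neural stem cells. They were chosen by name, and every probe that carries one of these names on the array was taken, which gave 15 of 55681 probes. The samples were neural stem/progenitor cells (NSPCs) cultured as neurospheres from Slc:ICR mouse embryos at embryonic day 13.5, in medium with B-27, 20 ng/mL EGF and 20 ng/mL basic FGF, either wild-type or Trp53-/-. The labels give this strain and age for both genotypes, and the study's methods name Trp53-heterozygous mice, obtained from a repository, without describing the embryos that gave the Trp53-/- cells. Each of 4 arrays, 2 per genotype, paired Cy5-labelled RNA of cells treated with 20 μM PJ34, an inhibitor of poly(ADP-ribose) polymerases, with Cy3-labelled RNA of untreated cells of the same genotype. RNA was prepared anew for every array, which makes the array the replicate, and the dyes were not swapped, so a dye bias of a probe and the effect of PJ34 cannot be told apart within a genotype.

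Neural stem cells of the embryonic forebrain are radial glia, which line the ventricle and divide to renew themselves and to give rise to neurons and later to glia. Transcription factors of the SoxB1 group (Sox1 and Sox2), Sox9 and Pax6 keep or shape this state, nestin and vimentin form their intermediate filaments, and Fabp7 and Prom1 are found in their processes and at their apical membrane. Msi1 acts on RNA, and Hmga2 is a chromatin protein of fetal stem cells whose mRNA is a known target of let-7 microRNAs and which is known to hold down the Cdkn2a locus.

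The probes set which transcripts were read, and for 2 genes, Hmga2 and Pax6, features of the probe sequences are described. The brighter Hmga2 probe (A_52_P300730, chromosome 10, 119798739 to 119798798 of mm9) holds a match to the let-7 seed. The stretch around the match is shown with the match in capitals, above 2 members of the let-7 family from RefSeq (GRCm38.p6) with their seed, bases 2 to 8, in capitals.
Hmga2 A_52_P300730: tgtacaatcaaaacacactaCTACCTCtta
mmu-let-7b-5p: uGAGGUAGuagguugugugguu
mmu-let-7i-5p: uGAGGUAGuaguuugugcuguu
All 8 listed let-7 5p sequences share this seed. The letters CTACCTC stood in 1 of the 15 probes as listed and in 0.366% of all probes, and their reverse complement GAGGTAG stood in 1 of the 15, the Fabp7 probe, and in 0.259% of all probes. A match is a description of the probe's letters, and let-7 itself was not measured here.

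Pax6 had a probe at the end of its coding sequence (A_55_P2022946, chromosome 2, 105536454 to 105536513 of mm9) and a probe whose listed position, 105524098 to 105524949, spans 852 bases for a probe of 60 and so crosses an intron (A_52_P469306). The second probe ends in the codons of the alternative exon of the paired box, which changes the DNA binding of Pax6. These codons are in capitals, as is the stop codon of the first probe.
Pax6 A_52_P469306: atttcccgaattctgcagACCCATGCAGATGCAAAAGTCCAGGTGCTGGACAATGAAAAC
Pax6 A_55_P2022946: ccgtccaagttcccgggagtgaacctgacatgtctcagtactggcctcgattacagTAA
The probe with the alternative exon was well above background in 0 of 4 control channels and 1 of 4 PJ34 channels, whereas the probe at the stop codon was well above background in all 8. Coding probes of Msi1 and Prom1 were dim in the same way, as their sequences and detection show.
Msi1 A_55_P2062688: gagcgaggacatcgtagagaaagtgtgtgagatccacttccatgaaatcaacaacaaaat
Prom1 A_52_P402786: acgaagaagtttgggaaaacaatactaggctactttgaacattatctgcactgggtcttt
The Msi1 probe (chromosome 5, 115890516 to 115890575) was well above background in 0 of 4 control and 2 of 4 PJ34 channels, and the Prom1 probe (chromosome 5, 44397410 to 44397469) in 1 and 2. Where a gene had several probes, the brightest over the 4 arrays was used, and for all 10 genes that probe was well above background in both channels of every array. All 10 markers of the labelled cell type were thus detected in untreated and treated cells.

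The state of the arrays bears on every value below. The number of probes well above background ran from 21505 to 27156 over the channels, no spot was saturated, and across genes the log2 ratios of the arrays of a genotype had a correlation of 0.702 in wild-type and 0.644 in Trp53-/- NSPCs, where genes are not independent replicates. Trp53 itself was 0.71 lower on the log2 scale in untreated Trp53-/- cells (q = 0.051 from limma) and stayed well above background on all arrays. Cdkn1a, a target of p53, had ratios of 1.84 and 1.23 in wild-type and -0.48 and -0.74 in Trp53-/- NSPCs. The array of Trp53-/- replicate 2 stood apart: the Y-linked genes Eif2s3y and Ddx3y had log2 ratios of 4.22 and 3.12 there and Xist -1.39, while on the other 3 arrays these genes lay between -0.20 and 0.84. On that array both Y-linked genes stood well above background in treated cells but not in untreated cells. The treated and untreated cells there thus differed in more than PJ34, and every ratio of that array holds both differences. Values without this array are therefore given where a result rests on it. Of 16 markers of microglia, endothelial cells and fibroblasts, 5 passed the filter on dim probes, and Aif1, Cx3cr1, Cldn5, Cdh5, Col1a1 and Dcn were not well above background in any channel. Kdr, a receptor of endothelial cells, was bright in all untreated cells, with a control signal of 13.02 and 12.94 (log2) in wild-type and of 11.73 and 11.55 in Trp53-/- NSPCs, a difference of -1.34 (q = 0.0144). Csf1r, a receptor of microglia, had 10.26 and 10.62 against 9.80 and 9.46, a difference of -0.82 (q = 0.0494). Both lost their q when either Trp53-/- array was left out, with values of -1.26 (q = 0.213) and -0.65 (q = 0.728) without replicate 2. With PJ34, limma gave 0 of the 5 a q below 0.05 in either genotype, and 0 an unadjusted p below 0.05, and the part of Kdr and Csf1r in the untreated differences below was not tested.

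All changes with PJ34 are log2 ratios of PJ34 over control, tested in limma over the 4 arrays with Storey's q. In wild-type NSPCs, the group did not move one way. Prom1, Msi1, Fabp7 and Hmga2 were higher with PJ34 at q below 0.05, Sox1 was lower, and the other 5 genes did not pass, so 5 of 10 genes passed where 24.7% of the 20227 genes tested did (13.5% higher and 11.2% lower). None of the 10 exceeded 2-fold, the limit in the study's criteria, which 0.499% of all genes met, although 6 of 10 had an unadjusted p below 0.05. The median of the group was -0.02 against 0.03 over all genes. In Trp53-/- NSPCs, Prom1 and Fabp7 were higher and Vim was lower, 3 of 10 genes at q below 0.05 against 23.1% of all genes (12.7% higher and 10.4% lower), none exceeded 2-fold against 0.361% of all genes, and 3 had an unadjusted p below 0.05. The median was -0.12 against 0.03. In a bulk sample, fewer cells of a type and less RNA per cell cannot be told apart, and this holds for every value of these genes.

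**Figure D1:**
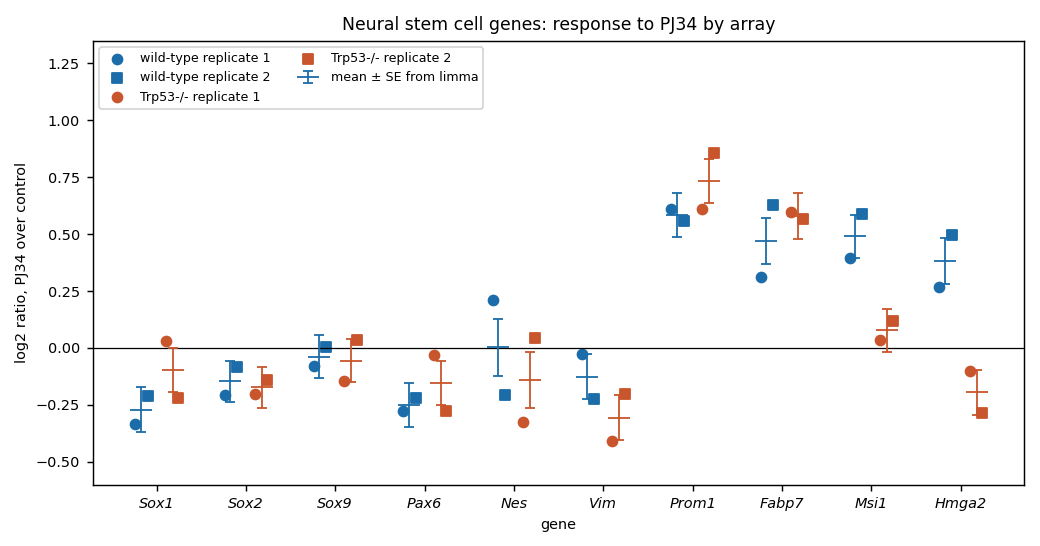
Log2 ratio of PJ34 over control (vertical axis) for the 10 genes, on the 2 wild-type arrays (blue) and the 2 Trp53-/- arrays (orange), with the mean ± SE from limma beside the points. Prom1 and Fabp7 lie above 0 on all 4 arrays, while Msi1 and Hmga2 lie higher on both wild-type than on both Trp53-/- arrays.

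Among the surface and cytoplasmic markers of radial glia, Prom1, the pentaspan membrane protein also known as CD133, had log2 ratios of 0.61 and 0.56 on the wild-type arrays and of 0.61 and 0.86 on the Trp53-/- arrays. It was therefore above 0 on all 4 arrays, and the lower Trp53-/- value met the higher wild-type value to 2 decimals. The mean rise was 1.50-fold in wild-type (0.58 ± 0.039 SD, n = 2 arrays, q = 0.00134) and 1.66-fold in Trp53-/- NSPCs (0.73 ± 0.17, q = 0.000692). Without Trp53-/- replicate 2 the latter was 0.61 with q = 0.0100. The q of Prom1 stayed below 0.05 in both genotypes under all 17 alternatives tried, many of which leave the ratio itself unchanged. Its rise was read on a single probe (chromosome 5, 44384861 to 44384920), since the coding probe printed above was too dim to pass the filter. That coding probe had 0.11 and -0.03 on the wild-type arrays and 0.11 and -0.01 on the Trp53-/- arrays. On wild-type replicate 1, where both its channels were well above background, it had 0.11 against 0.61 on the probe that was read.

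Fabp7, the brain fatty acid binding protein of radial glia (chromosome 10, 57508039 to 57508098), had 0.31 and 0.63 on the wild-type arrays and 0.60 and 0.57 on the Trp53-/- arrays. All 4 values were above 0, and the lowest was that of wild-type replicate 1. The mean was 1.38-fold higher with PJ34 in wild-type (q = 0.00523) and 1.50-fold in Trp53-/- NSPCs (q = 0.00238), and without wild-type replicate 2 the former was 0.31 with q = 0.109. With the scanner's log ratios neither passed (q of 0.0792 and 0.0627). Its relative Fabp5 was lower with PJ34 in wild-type NSPCs, with -0.36 and -0.52 (q = 0.00453). With median centring Fabp5 was 0.37, under a median of all genes of 0.457.

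Among the RNA and chromatin regulators, Msi1, an RNA-binding protein that represses translation of its targets (chromosome 5, 115904030 to 115904089), had 0.39 and 0.59 on the wild-type arrays and 0.04 and 0.12 on the Trp53-/- arrays. Both wild-type values lay above both Trp53-/- values. The mean rise in wild-type was 1.41-fold (q = 0.00289), and in Trp53-/- NSPCs the ratio of 0.08 had a 95% interval from -0.13 to 0.29. Without wild-type replicate 2 the rise was 0.39 with q = 0.0516, and with the mean of both Msi1 probes, of which the dim one had a mean of -0.09, it was 0.20 with q = 0.0650.

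The brighter Hmga2 probe, the one with the let-7 match, had 0.27 and 0.50 on the wild-type arrays and -0.10 and -0.29 on the Trp53-/- arrays. Here the genotypes lay on opposite sides of 0. The mean was 1.30-fold higher in wild-type (q = 0.0122). Without wild-type replicate 2 it was 0.27 with q = 0.165, with the mean of both probes 0.21 with q = 0.0819, and with the scanner's log ratios 0.36 with q = 0.102. In Trp53-/- NSPCs it was -0.20 with an interval from -0.42 to 0.02. The other Hmga2 probe (A_55_P2043921, 119800621 to 119800680) had -0.15 and 0.22 on the wild-type arrays and -0.47 and -0.37 on the Trp53-/- arrays. On this probe the Trp53-/- mean of -0.42 passed (q = 0.0130, with loess alone computed) and the wild-type mean did not (q = 0.439), so the probes differ in level and share the order of the genotypes. With median centring, the Trp53-/- ratio of the brighter probe was 0.61, near the median of all genes under that setting.

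**Figure D2:**
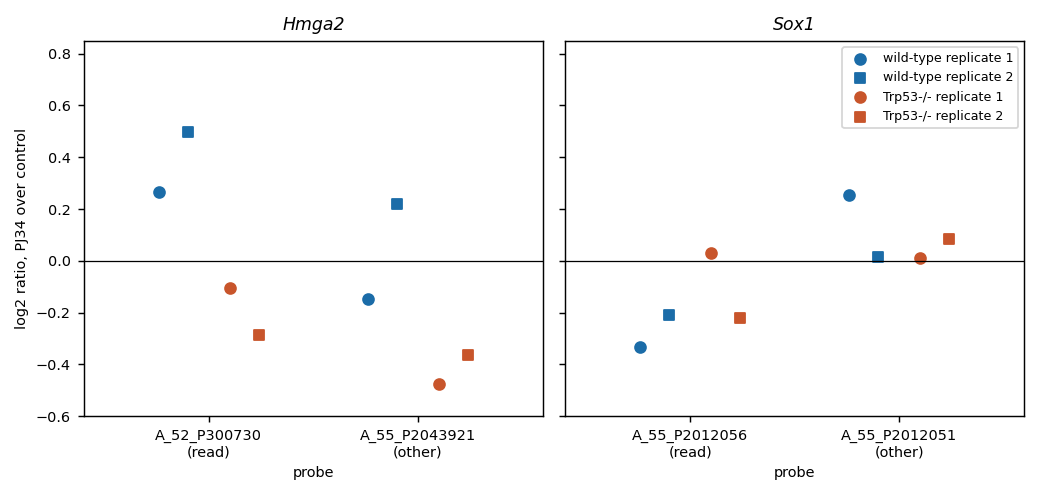
Log2 ratio of PJ34 over control (vertical axis) on each array for both probes of Hmga2 and of Sox1, wild-type in blue and Trp53-/- in orange. For Hmga2 the Trp53-/- points lie below the wild-type points on both probes, while for Sox1 the wild-type points are below 0 on the probe that was read and at or above 0 on the other.

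Among the transcription factors, Sox1, which marks the neural lineage from its start (chromosome 8, 12399496 to 12399555), had -0.33 and -0.21 on the wild-type arrays and 0.03 and -0.22 on the Trp53-/- arrays. The genotypes overlapped. The decrease in wild-type was 1.21-fold (q = 0.0428), it did not pass without either wild-type array (q of 0.263 and 0.101), and with median centring the ratio turned to 0.24, under a median of all genes of 0.457. A second Sox1 probe, which reaches over the stop codon (A_55_P2012051, 12397503 to 12397562), had 0.25 and 0.01 in wild-type and 0.01 and 0.08 in Trp53-/- NSPCs, and passed in neither (q of 0.199 and 0.386). The change of Sox1 therefore depended on the probe.

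Sox2, the factor that holds neural progenitors in their undifferentiated state (chromosome 3, 34550773 to 34550832), had -0.21 and -0.08 in wild-type and -0.20 and -0.14 in Trp53-/- NSPCs. All 4 values were below 0 and none of the means passed, with intervals from -0.35 to 0.05 and from -0.37 to 0.03. Pax6, a factor of the dorsal forebrain that promotes neurogenesis, had -0.28 and -0.22 in wild-type and -0.03 and -0.28 in Trp53-/- NSPCs, with q of 0.0530 and 0.153. Sox9, which is needed for neural stem cells to form and for gliogenesis, was printed in 10 spots per array (chromosome 11, 112648809 to 112648868) and had the values closest to 0, with -0.08 and 0.00 in wild-type and -0.15 and 0.04 in Trp53-/- NSPCs. Its intervals, from -0.24 to 0.17 and from -0.26 to 0.15, were among the narrowest of the group.

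Of the intermediate filament genes, Nes (chromosome 3, 87784303 to 87784362) had 0.21 and -0.21 on the wild-type arrays and -0.33 and 0.04 on the Trp53-/- arrays. The arrays of each genotype lay on opposite sides of 0, and the intervals of the means ran from -0.27 to 0.28 and from -0.41 to 0.13. Vim (chromosome 2, 13504232 to 13504291), the filament protein that pairs with nestin, had -0.03 and -0.23 in wild-type and -0.41 and -0.20 in Trp53-/- NSPCs. Its decrease in Trp53-/- NSPCs was 1.24-fold (q = 0.0301). It was -0.41 with q = 0.0775 without replicate 2 and -0.20 with q = 0.255 without replicate 1, and with median centring it turned to 0.82. Synm, another filament protein of radial glia, was higher with PJ34 on every array, by 1.20 and 0.59 in wild-type and 0.75 and 0.40 in Trp53-/- NSPCs (q of 0.000961 and 0.00997). Its control signal was dim, at 6.69 and 6.83 in wild-type and 6.77 and 6.91 in Trp53-/- NSPCs. It was well above background in 3 of 4 control channels. Over 16 alternatives the wild-type ratio ran from 0.56 to 1.83 and the Trp53-/- ratio from 0.29 to 1.21.

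Loess centres the ratios of each array along the range of intensity. Median centring subtracts the same value from every spot of an array and so keeps any trend of the ratio with intensity. This choice sets the direction of small ratios. With median centring, the median of all genes was 0.457 in wild-type and 0.627 in Trp53-/- NSPCs instead of 0.03 in both. Under that setting 8 of the 10 genes in wild-type and 10 of 10 in Trp53-/- NSPCs passed. The share of all genes that passed under it is not given here, so these counts are not read as particular to the 10 genes. Pax6 in wild-type was the single mean below 0, and the group's medians were 0.696 and 0.723. Relative to the median of all genes, Prom1 (1.11 and 1.40) and Fabp7 (1.32 and 1.75) remained higher in both genotypes. This was not particular to them under that setting. Nes (0.72 and 0.89), Sox2 (0.49 and 0.69), Sox9 (0.56 and 0.75) and Vim (0.67 and 0.82) were above it too. Msi1 (1.04) and Hmga2 (0.94) were above it in wild-type only.

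The next question was whether the response depended on Trp53. The difference between genotypes, Trp53-/- minus wild-type, had a q below 0.05 for 0 of the 10 genes, against 1.77% of all genes (0.475% higher and 1.30% lower in Trp53-/-), and none was called at 2-fold, against 0.480%. By limma 2 of the 10, Hmga2 and Msi1, had an unadjusted p below 0.05. Hmga2 differed by -0.58 ± 0.14 (SE), with an interval from -0.89 to -0.27, q = 0.0608. It passed under 6 of 16 alternatives, among them without wild-type replicate 1 (-0.69, q = 0.0403) and without Trp53-/- replicate 1 (-0.67, q = 0.0449), and its q over all 16 ranged from 0.0173 to 0.607. Without Trp53-/- replicate 2 the difference was -0.49 with q = 0.211. The other Hmga2 probe differed by -0.46 (q = 0.151). Msi1 differed by -0.41, with an interval from -0.71 to -0.12 and q = 0.129, and passed under none of the 16. For Prom1 the difference was 0.15 with an interval from -0.15 to 0.45, and for Fabp7 it was 0.11 with an interval from -0.20 to 0.43. The other 6 genes differed by -0.18 to 0.18. These intervals do not show that the genotypes responded alike, and a bias of a probe towards a dye drops out of this comparison.

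**Figure D3:**
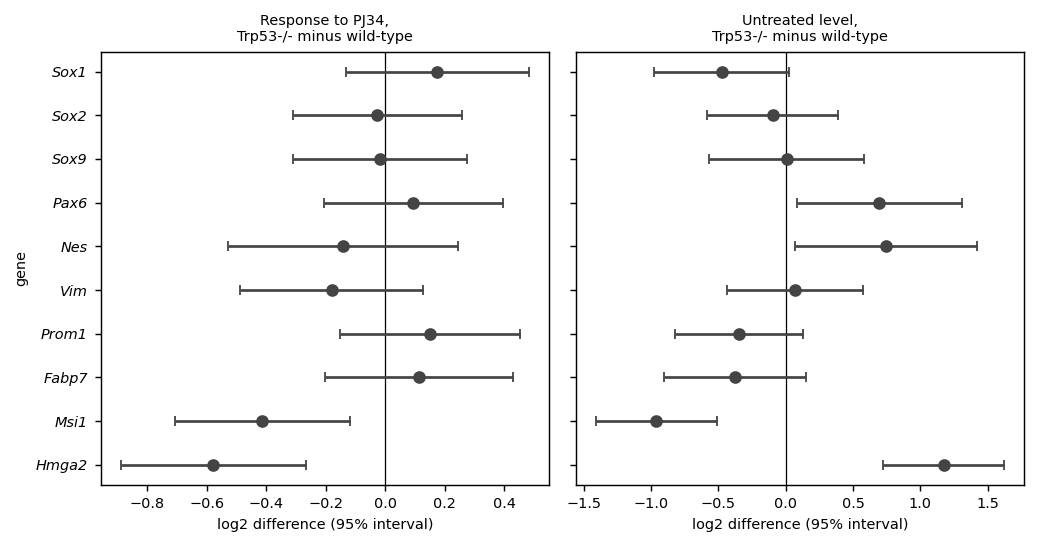
Difference between genotypes (Trp53-/- minus wild-type, log2 scale, horizontal axes) for each gene, in the response to PJ34 on the left and in the untreated level on the right, with 95% intervals from limma. On the left the intervals of Hmga2 (-0.89 to -0.27) and Msi1 (-0.71 to -0.12) exclude 0 before adjustment, and on the right those of Hmga2, Msi1, Nes and Pax6 do.

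Untreated NSPCs of the 2 genotypes were compared on the control channel, after loess and quantile normalization between arrays (Aquantile), over 17245 genes. At q below 0.05, 2 of the 10 genes differed, Hmga2 higher and Msi1 lower in Trp53-/- cells, where 10.1% of all genes did (5.03% higher and 5.09% lower). Of these, Hmga2 exceeded 2-fold, which 4.78% of all genes did, and 4 genes had an unadjusted p below 0.05. Each array had its own slide and scan, and both wild-type arrays were scanned before both Trp53-/- arrays, so scan and genotype cannot be told apart in this comparison. The cultures differed in more than Trp53 too: Eif2s3y and Ddx3y were well above background in both wild-type control channels and in neither Trp53-/- control channel, and the part of this in the results was not tested.

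The Hmga2 signal of untreated cells was 9.004 and 8.977 on the wild-type arrays and 10.026 and 10.303 on the Trp53-/- arrays, on the log2 scale of normalized intensity. The groups did not overlap, and the gap was larger than the spread within either. The level was 2.26-fold higher in Trp53-/- NSPCs (1.17 ± 0.18 SE, interval from 0.73 to 1.62, q = 0.0205). The other probe had 7.32 and 7.48 against 8.67 and 8.61, a 2.37-fold difference (q = 0.0186), so both probes of Hmga2 differed alike. With PJ34, the brighter probe stood at 9.27 and 9.48 in wild-type and at 9.92 and 10.02 in Trp53-/- NSPCs. The genotypes were closer there than in untreated cells, but limma's difference in response did not pass (q = 0.0608).

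Msi1 had control signals of 8.85 and 8.78 on the wild-type arrays and of 7.98 and 7.72 on the Trp53-/- arrays. Again the groups did not overlap, which also held for Nes, Pax6, Sox1, Prom1 and Fabp7. The share of all genes without overlap is not given here. The level was 1.95-fold lower in Trp53-/- NSPCs (-0.96 ± 0.18 SE, interval from -1.41 to -0.51, q = 0.0265). With PJ34 the gap was wider, at 9.24 and 9.36 against 8.02 and 7.83, but limma's difference in response did not pass (q = 0.129). Both untreated differences lost their q when an array of Trp53-/- was left out: without replicate 2, Hmga2 was 1.03 with q = 0.359 and Msi1 -0.83 with q = 0.522, and without replicate 1 they were 1.31 with q = 0.109 and -1.09 with q = 0.175. With either wild-type array left out, q was at most 0.00149 for both. With median centring of the control channels in place of loess and quantile normalization, the differences were 1.34 with q = 0.106 and -0.76 with q = 0.190.

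**Figure D4:**
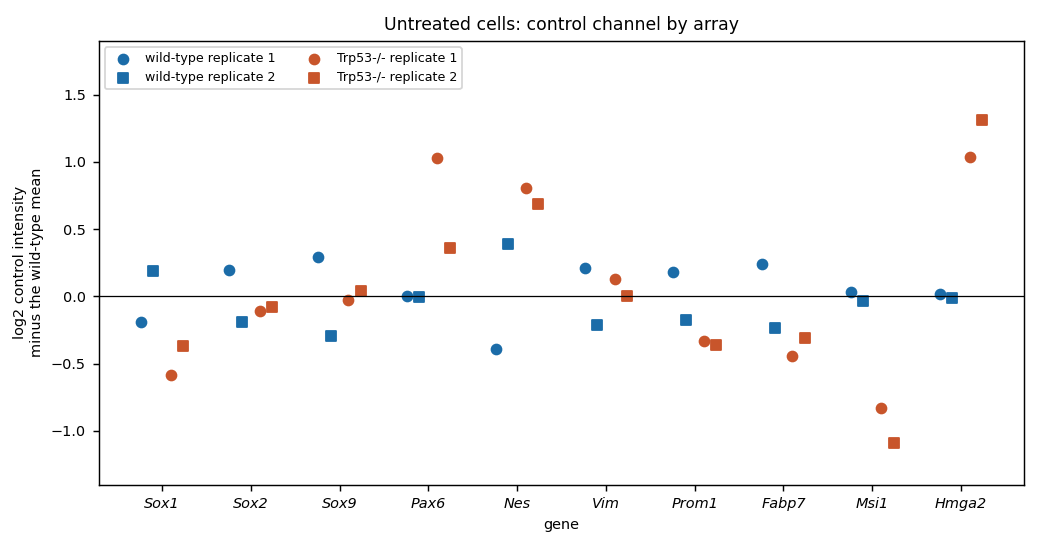
Control-channel signal of each gene minus its mean over the wild-type arrays (vertical axis, log2 scale), for wild-type (blue) and Trp53-/- (orange) arrays. The Trp53-/- points of Hmga2, Nes and Pax6 lie above all wild-type points. Those of Msi1, Sox1, Prom1 and Fabp7 lie below them, while for Sox2, Sox9 and Vim the genotypes overlap.

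Nes had 12.85 and 13.63 in untreated wild-type and 14.04 and 13.92 in untreated Trp53-/- NSPCs. The wild-type arrays lay further apart (SD 0.55) than those of Trp53-/- (SD 0.083), and the difference of 0.75, with an interval from 0.07 to 1.42, did not pass (q = 0.0926). It passed without wild-type replicate 1, at 0.35 (q = 0.0445), and without wild-type replicate 2, at 1.14 (q = 0.000208), so its size rested on which wild-type array was kept. Pax6 had 7.09 and 7.09 against 8.12 and 7.45, a difference of 0.69 (q = 0.0887) in which the replicates of Trp53-/- lay further apart (SD 0.47) than those of wild-type (SD 0.0061). It was 0.36 (q = 0.722) without Trp53-/- replicate 1, and it passed without wild-type replicate 1 or 2 (q of 0.0213 and 0.0151). Sox1, Prom1 and Fabp7 were lower by 0.48, 0.35 and 0.38 with q between 0.121 and 0.186. Over 15 alternatives Sox1 ran from -0.67 to -0.29, Prom1 from -0.53 to -0.17 and Fabp7 from -0.62 to -0.14. Each passed under 1 of the 15, and that fit kept a single wild-type array. Sox2, Sox9 and Vim differed by -0.10, 0.01 and 0.07, with intervals that reached from -0.58 to 0.58.

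Gene lists of the same cells were set beside the 10 genes. Among 15 relatives of the members, 11 passed the filter, and in wild-type 2 were higher and 4 lower at q below 0.05. Of all genes, 13.5% were higher and 11.2% lower there. Among the relatives, values were as follows. The largest decrease was that of Hmga1, the other gene of the HMGA family, with -0.64 and -0.84 in wild-type and -0.95 and -0.49 in Trp53-/- NSPCs. With median centring Hmga1 was 0.04 and 0.41, still below the medians of all genes under that setting, 0.457 and 0.627. Sox3, the third SoxB1 factor, had -0.50 and -0.43 in wild-type (q = 0.00279) and -0.06 and -0.01 in Trp53-/- NSPCs. With median centring its wild-type mean was 0.25, also below the median of all genes. The difference of Sox3 between genotypes did not pass (0.43, q = 0.103). In untreated cells Hmga1 and Ina were higher in Trp53-/- by 0.94 and 1.02, and both lost their q without either Trp53-/- array.

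Of 23 other genes of radial glia and progenitors, all of which passed the filter, 1 was higher and 8 were lower in wild-type, and 3 were higher and 6 lower in Trp53-/- NSPCs. Of all genes, 13.5% were higher and 11.2% lower in wild-type, and 12.7% and 10.4% in Trp53-/- NSPCs. The medians of the 23 genes were -0.17 and -0.11. Hes5, a Notch effector that holds back neurogenesis, had -2.01 and -1.50 in wild-type and -0.85 and -0.44 in Trp53-/- NSPCs. With median centring its Trp53-/- mean was 0.24, under a median of all genes of 0.627. Nr2e1, which keeps neural stem cells dividing, had -0.68 and -0.55 in wild-type. In untreated cells, Ednrb and Tnc were higher (1.13 and 0.97) and Lhx2 lower (-1.02) in Trp53-/- NSPCs, and these 3 also lost their q without either Trp53-/- array. All 8 cell cycle genes were lower with PJ34 in wild-type NSPCs at q below 0.05, with a median of -0.63, and 2 of 8 were in Trp53-/- NSPCs, while the 8 differences between genotypes had values from 0.32 to 0.73 and q above 0.05 (unadjusted p below 0.05 for 6 of 8). With median centring, Ccna2 in wild-type turned to 0.02 and Ccnb1 and Cdk1 in Trp53-/- to 0.44 and 0.52. These values stayed below the medians of all genes under that setting, 0.457 in wild-type and 0.627 in Trp53-/- NSPCs.

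Along the route from Lin28 and let-7 to Hmga2, 6 of 9 genes passed the filter. Lin28b and Trim71 were not well above background in any channel. Lin28a, which blocks the making of let-7, had no change with PJ34 that passed, and its untreated difference was -0.63 (q = 0.0518). Igf2bp3, an RNA-binding protein of fetal cells, was lower with PJ34 in both genotypes (-0.53 and -0.41). With median centring Igf2bp3 was 0.03 and 0.33, under medians of all genes of 0.457 and 0.627. Cdkn2a, whose locus Hmga2 is known to hold down, and its neighbour Cdkn2b, both cell cycle inhibitors, were higher in untreated Trp53-/- NSPCs by 3.46 and 2.23 (q of 0.00696 and 0.00724), alongside the higher Hmga2.

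Markers of more differentiated cells differed between the genotypes, in both directions. In untreated Trp53-/- NSPCs, 5 of 10 astrocyte markers and 4 of 11 oligodendrocyte markers were higher at q below 0.05, with Gfap higher by 2.38, S100b by 1.89 (1.77 with q = 0.0594 without Trp53-/- replicate 2) and Mbp by 1.98. The oligodendrocyte list also had 1 member lower, Pdgfra of early oligodendrocyte progenitors, with -0.71 (q = 0.0460). Of 10 neuronal and intermediate progenitor markers tested there, 3 were higher and 1 was lower, Snap25 of the synapse with -0.73 (q = 0.0431). The 3 were Rbfox3, Elavl3 and Syn1, and over all genes 5.03% were higher and 5.09% lower. Rbfox3, Elavl3, Syn1, Snap25, Clu, Slc1a2, Mag and Mobp lost their q without either Trp53-/- array. With median centring of the control channels they did not pass either, except Clu, and Snap25 was -0.50 (q = 0.243). The mean control signal of the astrocyte list was 9.948 and 10.004 on the wild-type and 10.83 and 10.78 on the Trp53-/- arrays, and that of the oligodendrocyte list 9.19 and 9.49 against 10.14 and 10.13. That of the 10 stem cell genes lay between 10.8 and 10.9 in both. With PJ34, 6 of 13 neuronal and intermediate progenitor markers were higher in wild-type NSPCs and 4 of 13 in Trp53-/-, led by Insm1 with 0.63 and 0.70. Over all genes 13.5% and 12.7% were higher. Neurod1, among those higher in wild-type, was well above background in 0 of 4 control and 3 of 4 PJ34 channels. It therefore passed the filter through treated channels alone. Nefl, higher in both genotypes, was well above background in 2 of 4 control channels. Tubb3 (-0.10 and -0.18) and Dcx (-0.04 and -0.0042), on the same list, passed in neither genotype. The part of the markers of differentiated cells in the values of the 10 genes was not tested.

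With loess, Prom1 had the largest mean ratio of the 10 genes in either genotype, whereas with median centring that of Fabp7 was larger (1.32 and 1.75 against 1.11 and 1.40). The genes whose ratios over the 4 arrays were most like its own, by Euclidean distance, were Tgfbr2 (0.134), Nmnat1 (0.166) and Tceal6 (0.170).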

How the data were processed

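Gene expression was measured on Agilent SurePrint G3 Mouse arrays. The authors scanned them and extracted the spots with Agilent Feature Extraction 10.7.3.1, per the submitters' processing notes. The deposited intensity values used here are spot means and local background medians of each colour. The deposited log10 ratios of the same software, turned to log2, served as an alternative. A table of normalized values with 4 columns that no label matches was not used. RefSeq accessions gave symbols for 26300 of 55681 probes, and the files gave the rest.

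Background was corrected by normexp (offset 50) and ratios by loess in limma 3.58.1 (R 4.3.3), outlier spots (228 to 276 per array) were dropped and spots averaged by probe. Probes needed 1 channel well above background on both arrays of a genotype, which kept 27036 probes and 20227 genes. The models had 2 residual degrees of freedom, and 10.48 after moderation for ratios and 6.23 for untreated levels, so the number of arrays limits the precision. The code was tested on simulated data. The study's call is p and q below 0.05 and over 2-fold, and counts at q alone stand beside it. The genes and lists were chosen with earlier results of these data known. Outside the 10 members, named genes are those at q below 0.05, at most 4 per list and comparison by size, the sex-linked and p53 checks, and the 3 nearest genes. Some genes that this rule takes are not reported here. Lin28a, Lin28b, Trim71, untreated Pdgfra and the undetected markers were named after their values were seen. P-values measure the spread between arrays. Agreement of replicate numbers between genotypes was checked by the correlation of deviations, which was -0.169 for ratios and 0.0745 for untreated levels. The numbers were therefore not taken as pairs. With 2 arrays per genotype, these correlations cannot show whether arrays of the same number shared a preparation.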

Additional observations from a re-analysis of the deposited data

Results flagged for a closer look

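None of the 10 stem cell genes had a q below 0.05 in limma's test of the difference in response between genotypes. Over all genes 1.77% did, and by limma 2 of the 10 had an unadjusted p below 0.05. Another 6 named genes passed. Cdkn1a and Mdm2 are p53 checks, and Hes5, S100b, Mag and Cspg4 were named by a rule that takes genes passing a comparison, this one included. Their passing is therefore no contrast with the 10 genes, which were chosen by name. The differences of these 6 are given as Trp53-/- minus wild-type. Hes5 differed by 1.11 (q = 0.0159), with a larger decrease in wild-type. S100b differed by -0.692 (q = 0.0333), Mag by -1.07 (q = 0.0129) and Cspg4 by -0.953 (q = 0.0324), each lower with PJ34 in Trp53-/- NSPCs. With median centring S100b turned to 0.14 there, under a median of all genes of 0.627. S100b passed under 10 of 16 alternatives, with -0.54 (q = 0.103) without Trp53-/- replicate 1, -0.69 (q = 0.0538) without wild-type replicate 2 and -0.36 (q = 0.579) with median centring. Cspg4 passed under 11 of 16, with -0.64 (q = 0.0650) without wild-type replicate 1. Without Trp53-/- replicate 2, S100b differed by -0.84 (q = 0.0147), Mag by -0.86 (q = 0.0203), Cspg4 by -1.05 (q = 0.0124) and Hes5 by 0.91 (q = 0.0226). Cdkn1a differed by -2.14 (q = 0.000557) and Mdm2 by -1.05 (q = 0.00478), both p53 targets that were higher with PJ34 in wild-type NSPCs. Hes5, Mag and Mdm2 passed under 13 of 16 alternatives and Cdkn1a under 15.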

How the results depend on the processing

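Of 650 values of the 10 genes under alternatives, 559 kept direction and side of the threshold. Counts of the 10 genes at q below 0.05 moved most. The shares of all genes under the alternatives are not given beside the counts in this section. In wild-type NSPCs the 5 became 3 with the mean of a gene's probes, 8 with median centring, 1 with the scanner's log ratios, and 1 to 6 with an array left out (1 without wild-type replicate 2). In Trp53-/- NSPCs the 3 became 10 with median centring and 1 with the scanner's log ratios. Over 2-fold, median centring gave 3 and 2 in place of 0. For the difference, the 0 became 1 (Hmga2) with no filter, a strict filter or a variance trend, and 0 to 1 with an array left out. In untreated cells, the 2 at q below 0.05 became 0 with median centring of the control channels and 0 to 6 with an array left out (5 and 6 without wild-type replicates 1 and 2), and the 1 over 2-fold became 0 with median centring, 2 with an offset of 16 and 0 to 2 with an array left out.

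The replicate number was not taken to pair samples. With it as a block, the counts at q below 0.05 were 4, 3, 0 and 4 in wild-type, Trp53-/-, the difference and untreated cells. A crossed pairing, chosen after seeing the data, gave 6, 3 and 1 for the first 3.

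Median centring moved the median of all genes to 0.457 and 0.627, so a ratio could turn positive and still lie below that median. This setting turned these values positive. In wild-type they were Sox1 0.24, Sox2 0.49, Sox9 0.56, Vim 0.67, Aldoc 0.37, Ccna2 0.021, Cdkn2a 0.26, Fabp5 0.37, Hmga1 0.041, Igf2bp2 0.22, Igf2bp3 0.034, Olig2 0.37, Pdgfra 0.16, Sox3 0.25, Tead2 0.068 and Trp53 0.26. In Trp53-/- they were Hmga2 0.61, Nes 0.89, Pax6 0.33, Sox1 0.49, Sox2 0.69, Sox9 0.75, Vim 0.82, Ccnb1 0.44, Cdk1 0.52, Cdkn1a 0.065, Cdkn2a 0.68, Cdkn2b 0.65, Hes5 0.24, Hmga1 0.41, Igf2bp3 0.33, Mdm2 0.85, Olig2 0.43, S100b 0.14, Sox4 0.74, Tnc 0.27 and Trp53 0.24. In the difference they were Nes 0.17, Sox2 0.20, Sox9 0.20 and Vim 0.14, and for untreated Sox2 0.13. Nes in wild-type was -0.00293 without background correction and -0.00247 with an offset of 16, and the difference of Trp53 was 0.0019 without background correction and 0.0026 with scaling between arrays.

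With an array left out, values near 0 changed sign, within these ranges. In wild-type, Nes ran from -0.21 to 0.21 and Sox9 from -0.081 to 0.0050. In Trp53-/-, Nes ran from -0.33 to 0.045, Sox1 from -0.22 to 0.029, Sox9 from -0.15 to 0.036, Gfap from -0.00018 to 1.62 and Mdm2 from -0.070 to 0.0077. In the difference, Fabp7 ran from -0.047 to 0.27, Nes from -0.35 to 0.066, Pax6 from -0.030 to 0.22, Sox2 from -0.088 to 0.035, Sox9 from -0.11 to 0.074 and Trp53 from -0.080 to 0.069. In untreated cells, Sox2 ran from -0.29 to 0.097, Sox9 from -0.29 to 0.30 and Vim from -0.14 to 0.28. The cause of these changes was not tested.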
